A study of Mus musculus with 23 samples.

Results

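The comparison described here sets the hippocampus of mice of an exercised lineage against that of a sedentary lineage, with 2 generations joined. RNA-seq libraries were made from the hippocampus of male wild type C57BL/6 mice. All 23 libraries of the series enter: 11 of the exercised lineage and 12 of the sedentary lineage. The exercised lineage holds 4 exercised fathers, given daily treadmill sessions of 40 minutes during 6 weeks, and 7 of the offspring born to such fathers. The sedentary lineage holds 4 sedentary fathers, kept without exercise, and 8 offspring of such fathers. Fathers were 7 months old and offspring 5.5 months old when tissue was taken, and the fathers had been through behavioural tests and breeding after their training. Titles of 6 offspring of exercised fathers share a stem in pairs, which is not explained. The labels do not say which father or litter an offspring library comes from, nor that each library is a separate animal, so the p-values measure only the spread between these libraries, which may be partly technical. Lineage membership was taken from the group labels. The question is whether a difference between lineages is carried by trained fathers and by offspring that are labelled only as born to them.

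The hippocampus is a forebrain structure needed for spatial and episodic memory, and its dentate gyrus goes on making neurons in adult rodents. Running is known from mouse and rat studies to raise neurogenesis there. Bdnf (a neurotrophin), Igf1 (an insulin-like growth factor) and Vegfa (an angiogenic factor) are among the mediators most often followed. A father can affect the young through the germ line, seminal fluid or behaviour, and imprinted genes and chromatin enzymes are often examined in such designs.

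Library depth, read back from the deposited normalized counts, was 33667580 to 55172616 reads. A normalized count is a gene's read count divided by a size factor of its library, so values are comparable between libraries for 1 gene but not between genes of different length. All values below are normalized counts, and differences are on the log2(normalized count + 1) scale, exercised minus sedentary, from a limma fit over all 23 libraries with generation as a term. Of 51912 genes in both tables, 17447 reached a normalized count of 10 in 11 or more libraries and were tested. Markers of dentate granule cells and of CA1 pyramidal cells were high in every library, with mean log2 levels of 10.61 to 11.08 and 11.30 to 11.62, as the labelled tissue would have them. Libraries also differed in tissue next to the hippocampus: 6 of them, 2 exercised and 4 sedentary, had a mean log2 level of choroid plexus markers under 8.5. Replicate 7 of the offspring of exercised fathers, 1 of these 6, also had the most positive slope of level on GC content, and sedentary fathers replicate 1, another, the most negative.

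No gene differed between the lineages past the threshold: at a Benjamini-Hochberg adjusted p under 0.05 limma called 0 of 17447 genes (0%), and the smallest adjusted p was 0.129. Without adjustment, limma gave a p under 0.05 for 941 genes with a higher mean in the exercised lineage (5.39%) and for 1191 with a lower mean (6.83%), together 12.2% of the genes tested. Quasi-likelihood tests with edgeR on the recovered reads also called 0 genes, with 922 higher and 1181 lower at an unadjusted p under 0.05. DESeq2 on the same reads called 59 genes higher and 53 lower, 0.504% and 0.453% and 0.958% together, of the 11695 genes to which it gave an adjusted p. The DESeq2 differences were small, with log2 sizes from 0.074 to 0.41 and a median of 0.12. No gene had all 11 exercised libraries on one side of all 12 sedentary libraries (0%). Within a generation, 873 of the 17447 genes were separated in this way in fathers and 26 in offspring. In both generations and in the same direction it was 1 gene, Mfap1b, named below. A pooled effect supposes 1 size in both generations; the interaction of lineage and generation was called by limma for 0 genes (0%), with a smallest adjusted p of 0.725, and 991 genes (5.68%) had an unadjusted p under 0.05. Across all genes tested, the differences fitted in fathers alone and in offspring alone had the same direction for 57.0%. Their Spearman correlation across genes was 0.10 and their Pearson correlation was -0.04. After removal of the GC trend described below the Spearman correlation was -0.04. These correlations are given as a description since genes are not independent.

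The genes named here are the 12 with a higher and the 12 with a lower mean in the exercised lineage that had the smallest unadjusted p, among genes with a mean of at least 50. They were chosen by their p, so their small errors and their direction are a description. None passed the limma threshold, with adjusted p between 0.129 and 0.155. The higher genes were 1.07-fold to 1.33-fold higher, with a median log2 difference of 0.14, and the lower genes had a median of -0.15. In every one of the 12 higher genes all 11 exercised libraries lay above the median of the sedentary libraries of their own generation. The same held downward in 10 of the 12 lower genes, the exceptions being Acer2 (9 of 11) and Ttn (10 of 11). For each of the 24 genes the mean difference had 1 sign in both generations, and the smallest interaction p was 0.17.

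Promoters of 4 of these genes are printed to show the letters behind the counts given after them. They run from 250 bases before to 50 bases after the annotated start, from RefSeq on GRCm38.p6, and capitals mark GCATGCGC, the core of sites bound by the factor NRF1, and CCAAT, the box bound by NF-Y, each on either strand. Vars2 and Erf are from the higher genes, Rab6a and Ccnc from the lower, and the Erf window holds neither motif.
Vars2 (chr17:35667543-35667842, minus strand): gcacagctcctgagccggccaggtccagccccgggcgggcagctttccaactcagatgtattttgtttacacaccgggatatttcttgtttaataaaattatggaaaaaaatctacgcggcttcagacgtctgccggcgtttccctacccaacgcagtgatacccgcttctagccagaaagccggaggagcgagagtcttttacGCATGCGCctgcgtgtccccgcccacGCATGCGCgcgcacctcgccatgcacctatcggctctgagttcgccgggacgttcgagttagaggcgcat
Erf (chr7:25250709-25251008, minus strand): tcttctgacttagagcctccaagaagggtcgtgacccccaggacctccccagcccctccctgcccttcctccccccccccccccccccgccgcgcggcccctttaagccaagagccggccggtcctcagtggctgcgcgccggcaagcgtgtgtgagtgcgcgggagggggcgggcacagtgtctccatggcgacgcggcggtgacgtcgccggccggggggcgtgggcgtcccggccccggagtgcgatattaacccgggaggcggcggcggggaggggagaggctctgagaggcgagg
Rab6a (chr7:100607336-100607635, plus strand): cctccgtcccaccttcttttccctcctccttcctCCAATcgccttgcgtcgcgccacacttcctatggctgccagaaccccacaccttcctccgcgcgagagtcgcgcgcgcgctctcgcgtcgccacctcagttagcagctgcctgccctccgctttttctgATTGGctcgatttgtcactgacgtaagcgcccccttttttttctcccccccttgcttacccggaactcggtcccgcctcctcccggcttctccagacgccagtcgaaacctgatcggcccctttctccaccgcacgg
Ccnc (chr4:21727451-21727750, plus strand): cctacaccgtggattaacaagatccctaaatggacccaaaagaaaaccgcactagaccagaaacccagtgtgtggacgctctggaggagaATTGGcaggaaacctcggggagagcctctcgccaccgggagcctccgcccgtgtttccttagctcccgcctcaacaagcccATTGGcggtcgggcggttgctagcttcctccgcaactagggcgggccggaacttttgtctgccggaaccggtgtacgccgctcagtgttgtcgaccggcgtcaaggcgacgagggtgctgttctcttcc
CpG occurred 28 times in Vars2, 32 in Erf, 29 in Rab6a and 24 in Ccnc, beside a median of 25 in the promoters of the higher genes, 24 in those of the lower genes and 20 in those of all tested genes that matched. GC content was 57.0% in Vars2, 74.0% in Erf, 62.7% in Rab6a and 60.0% in Ccnc. Promoter windows were found for 9 of the 12 higher and 11 of the 12 lower genes, and their median GC was 57.7% and 62.7%, beside 60.7% over the 12063 promoters of tested genes that matched by symbol. GCATGCGC occurred in 1 promoter of each side and in 4.94% of the 12063. CCAAT occurred in 3 of 9 higher and 7 of 11 lower promoters and in 38.2% of the 12063. The core of ETS sites, CCGGAAG, occurred in 1 promoter of each side and in 15.9% of all. A match is only a match of letters.

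**Figure D1:**
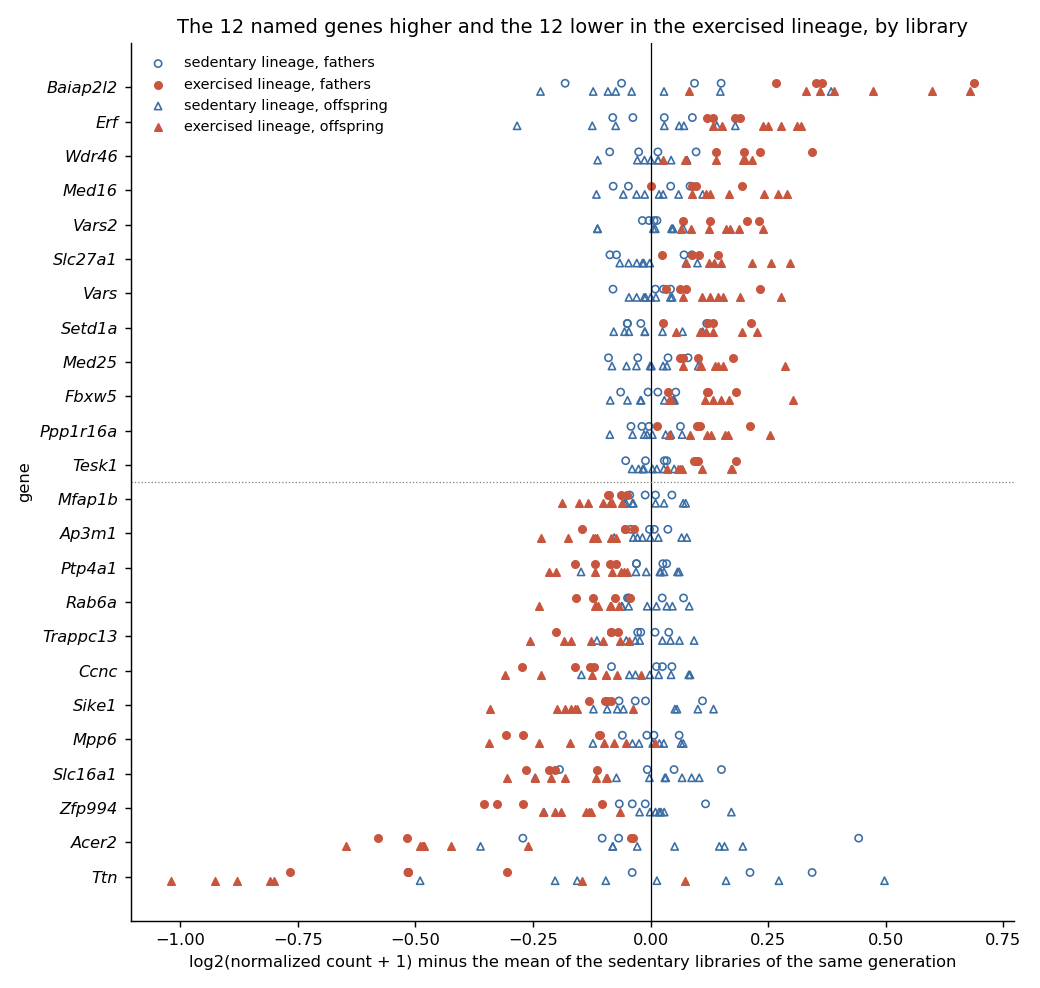
Levels of the 24 named genes in the 23 libraries, as log2(normalized count + 1) minus the mean of the sedentary libraries of the same generation (x axis), 1 gene per row (y axis), filled red for the exercised lineage, open blue for the sedentary lineage, circles for fathers and triangles for offspring. Exercised points of the 12 upper genes lie to the right and those of the 12 lower genes to the left, by 0.60 or less on average, and in most rows they run into the spread of the sedentary points.

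Among the higher genes were both valyl-tRNA synthetases, the enzymes that charge tRNA with valine. Vars2 (ENSMUSG00000038838.15, chr17:35655634-35667592), the mitochondrial enzyme, had normalized counts from 767.6 to 881.49 with a median of 834.22 in the 11 exercised libraries, and from 690.3 to 783.81 with a median of 744.35 in the 12 sedentary ones. Its exercised libraries overlapped the sedentary range only at its upper end. The difference was 0.15 on the log2 scale (SE 0.030, limma adjusted p = 0.129). Vars (ENSMUSG00000007029.16, chr17:35000987-35016322), the cytosolic enzyme, ranged from 1730.6 to 2017.83 (median 1810.25) in the exercised lineage and from 1598.31 to 1768.87 (median 1656.82) in the sedentary one. Its log2 difference was 0.13 (SE 0.027, limma adjusted p = 0.129), again with a narrow overlap.

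Erf (chr7:25242561-25250761), an ETS-domain repressor that growth factor signalling through ERK keeps out of the nucleus, had the largest difference among the higher genes after the scarce Baiap2l2. Its counts were 1765.37 to 2008.86 (median 1867.51) in exercised libraries and 1322.18 to 1824.17 (median 1656.93) in sedentary ones. The sedentary group was the wider one, and the log2 difference was 0.21 (SE 0.043, limma adjusted p = 0.129). Slc27a1 (chr8:71568882-71587302), a fatty acid transport protein, had 2830.38 to 3399.06 (median 3039.69) against 2623.09 to 2966.17 (median 2738.03). That log2 difference was 0.15 (SE 0.031). Baiap2l2 (chr15:79258195-79285537), a membrane-bending protein known from hair cells of the mouse inner ear, was low in all libraries, from 45.57 to 82.86 (median 61.59) in the exercised and from 36.43 to 56.76 (median 44.4) in the sedentary lineage. Its log2 difference of 0.42 (SE 0.083) was the largest of the higher genes, and its groups overlapped.

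Subunits of Mediator and a histone methyltransferase were also among the 12 higher genes. Med16 (chr10:79894708-79908923) and Med25 (chr7:44876765-44892712) encode subunits of Mediator, the complex that links transcription factors to RNA polymerase II. Med16 had 2096.03 to 2515.3 (median 2247.27) in exercised and 1899.68 to 2221.83 (median 2061.65) in sedentary libraries, a log2 difference of 0.15 (SE 0.033). Med25 had 2733.0 to 3302.75 (median 2916.56) against 2458.72 to 2904.2 (median 2694.86), a log2 difference of 0.13 (SE 0.028). Both groups overlapped in both genes. Setd1a (chr7:127776670-127800122), a methyltransferase that marks histone H3 at active promoters, had 2198.26 to 2509.91 (median 2320.55) against 2005.62 to 2351.97 (median 2099.8), a log2 difference of 0.13 (SE 0.029). The annotation holds a second coding entry over Setd1a, so the assignment of its reads is uncertain. The other higher genes were Tesk1, a kinase that regulates actin through cofilin, at 0.10, Ppp1r16a, a targeting subunit of a protein phosphatase, at 0.13, Fbxw5, a substrate receptor of ubiquitin ligases, at 0.13, and Wdr46, a nucleolar protein of ribosome assembly, at 0.17, all as log2 differences.

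The lower genes were of varied function. Acer2 (chr4:86874396-86934822), a ceramidase of the Golgi, ranged from 192.19 to 280.26 (median 218.38) in exercised libraries and from 237.76 to 391.13 (median 294.46) in sedentary ones. Its difference of -0.41 on the log2 scale (SE 0.085, limma adjusted p = 0.129) was among the largest in either direction, with overlap between 237.76 and 280.26. Slc16a1 (chr3:104638668-104658462), a transporter of lactate and other monocarboxylates found in brain endothelium and oligodendrocytes, had 1790.13 to 2120.25 (median 1953.47) in the exercised lineage. Sedentary libraries held 1881.75 to 2429.86 (median 2283.76) of it, and the log2 difference was -0.19 (SE 0.041, limma adjusted p = 0.129).

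Rab6a (chr7:100607410-100641268), a small GTPase of traffic through the Golgi, was the most abundant of the lower genes by normalized count. It had 22513.07 to 25906.75 (median 24559.95) in exercised and 25453.58 to 28109.23 (median 26600.98) in sedentary libraries, so the groups met only at their edges. The log2 difference was -0.11 (SE 0.025, limma adjusted p = 0.141). Ap3m1, a subunit of the AP-3 adaptor of endosomal sorting, differed by -0.11 (SE 0.024), and Trappc13, of the TRAPP tethering complexes, by -0.13 (SE 0.028). Ccnc (chr4:21727701-21759922), cyclin C of the Mediator kinase module, had 1126.22 to 1377.67 (median 1304.87) against 1261.2 to 1480.14 (median 1426.02), a log2 difference of -0.15 (SE 0.034, limma adjusted p = 0.155). Thus subunits of 1 complex stood on both sides of the list.

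Ttn (chr2:76703980-76982547) encodes titin, the giant spring of striated muscle, and was at trace level for so long a transcript. It had 58.62 to 126.24 (median 77.87) in exercised and 85.09 to 169.66 (median 125.33) in sedentary libraries, a log2 difference of -0.60 (SE 0.13, limma adjusted p = 0.131), the largest of the 24. The remaining lower genes were Zfp994, a zinc finger protein, at -0.19, Mpp6, a membrane-associated scaffold, at -0.16, Sike1, an inhibitor of innate immune kinases, at -0.15, Ptp4a1, a phosphatase of the PRL family, at -0.11, and Mfap1b, a spliceosome-associated protein, at -0.10, as log2 differences. Mfap1b has a close copy, Mfap1a, Zfp994 belongs to a large family, and Ptp4a1 overlaps another coding entry, so the assignment of reads to these genes is uncertain.

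Higher and lower genes differed in the base composition of their transcripts. Transcript GC content, that of the longest annotated transcript, was 56.9% to 64.0% in the 12 higher and 35.5% to 48.0% in the 12 lower genes, around a median of 49.3% for all genes tested. The same order ran through the whole data set. In the third of genes with the lowest GC (28.7% to 46.2%), 27.0% had a higher mean in the exercised lineage, and 35 were higher and 901 lower at an unadjusted p under 0.05. In the third with the highest GC (52.7% to 78.3%), 75.6% had a higher mean, with 739 higher and 45 lower. Across the 17394 genes with a GC value, the log2 difference and GC had a Spearman correlation of 0.42 and a Pearson correlation of 0.28, given as a description. Of the genes called by DESeq2, 58 of 59 higher ones lay above the median GC and 49 of the 52 lower ones with a GC value lay below it.

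**Figure D2:**
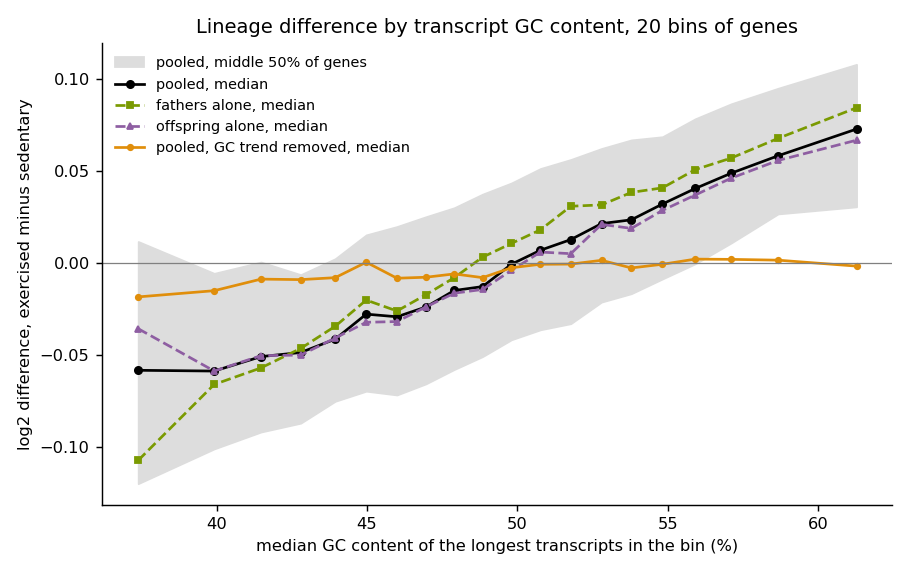
Log2 difference between the lineages (y axis) against transcript GC content in percent (x axis) for 20 bins of genes, with the pooled median in black, the middle 50% of genes in grey, medians of fathers alone and offspring alone as dashed lines, and the pooled median after removal of the GC trend in orange. The pooled median runs from -0.058 in the lowest bin to 0.073 in the highest, both generations follow it, and the orange line stays within 0.02 of 0.

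Each library has its own slope of log2 level on GC, relative to the mean of the libraries of its generation. The slope per 10 percentage points of GC was 0.027 ± 0.045 (SD, n = 11) in the exercised lineage, from -0.033 to 0.11, and 7 of 11 libraries were above 0. In the sedentary lineage it was -0.025 ± 0.055 (SD, n = 12), from -0.12 to 0.068, with 4 of 12 above 0. Among the 6 libraries low in choroid plexus markers, the 4 sedentary ones had slopes from -0.12 to -0.064 and the 2 exercised ones -0.033 and 0.11. The lineages overlapped widely, and the difference of 0.052 had a two-sided exact permutation p of 0.028 over 450450 relabellings within generation, 0.083 after Benjamini-Hochberg adjustment over the 3 library measures tested. The other measures were the slope on transcript length (exact permutation p = 0.36) and library depth (exact permutation p = 0.99). Leaving out 1 library at a time gave GC slope differences of 0.041 to 0.060 with unadjusted exact permutation p of 0.0085 to 0.057. All these relabellings took libraries with a shared title stem as separate units, so the p would be too small if such libraries are not independent.

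**Figure D3:**
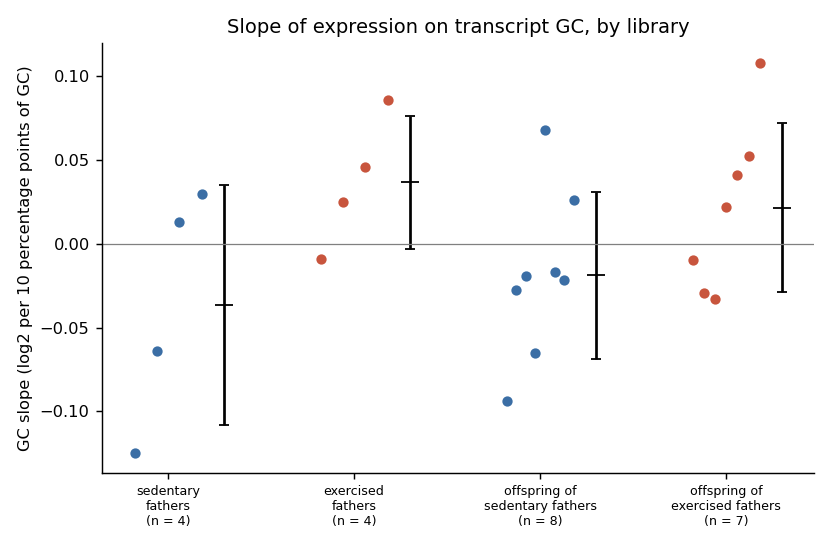
Slope of log2 level on transcript GC in each library (y axis, log2 per 10 percentage points of GC) in the 4 groups (x axis), with 1 point per library and the mean and SD in black. Exercised libraries average 0.027 and sedentary ones -0.025, and the points of the lineages overlap in both generations.

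When each library's GC trend was removed with a natural spline before the same fit, limma called 0 genes, with a smallest adjusted p of 0.911, and 379 genes were higher (2.18%) and 516 lower (2.97%) at an unadjusted p under 0.05, together 5.15%. The 24 named genes were chosen by their p in the same libraries, so their signs and p here are a description. All 24 kept their sign. The median log2 difference went from 0.14 to 0.087 for the higher and from -0.15 to -0.12 for the lower genes, and 21 of 24 still had an unadjusted p under 0.05. Tesk1, Setd1a and Ptp4a1 did not, with 0.36, 0.051 and 0.071. Ttn (-0.59), Acer2 (-0.40) and Baiap2l2 (0.33) had the largest log2 differences of the 24 after the removal. DESeq2 with GC offsets per gene and library called 0 genes, with a smallest adjusted p of 0.067 and 333 higher and 548 lower at an unadjusted p under 0.05. Without the 6 libraries low in choroid plexus markers the limma counts at an unadjusted p under 0.05 were 536 higher and 592 lower (6.47% together), and without replicate 7 of the offspring of exercised fathers alone they were 707 higher and 866 lower.

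Gene groups are described by how many of their tested members had a higher mean, beside 49.9% over all genes, and by their median log2 difference, which was 0.00 over all genes. Counts of members at an unadjusted limma p under 0.05 stand beside 12.2% of all genes tested, and 5.15% after removal of the GC trend. Genes most often followed in studies of exercise gave small differences. Of 22 in this panel, 21 were tested (Lcn2 was too low), and 9 were higher and 12 lower on average. Bdnf ranged from 1735.98 to 2132.25 (median 1896.68) in exercised and from 1634.85 to 2171.51 (median 1874.62) in sedentary libraries, a log2 difference of 0.02 (SE 0.047). The 2 ranges of Bdnf lay nearly on top of each other. Dcx, a protein of immature neurons, differed by 0.0011 (SE 0.061), and Cs, citrate synthase, by -0.0043 (SE 0.020). Fos, Arc and Npas4, which neuronal activity induces within minutes, varied several-fold between libraries of each lineage, with SEs of 0.33, 0.21 and 0.25.

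Igf1 was the panel member with the smallest p. It ranged from 324.6 to 425.1 (median 373.9) in exercised and from 342.4 to 495.1 (median 439.7) in sedentary libraries, and all 11 exercised libraries lay below the sedentary median of their generation. The log2 difference was -0.21 (SE 0.067, limma adjusted p = 0.26), and -0.17 after removal of the GC trend. Vegfa differed by -0.14 (SE 0.050, limma adjusted p = 0.286), with 9 of 11 below. Npy and Sst, peptides of interneurons, differed by 0.13 each (SE 0.057 for both, limma adjusted p of 0.367 and 0.363). With these 4, 2 panel members in each direction had an unadjusted p under 0.05, beside 12.2% of all genes tested. After removal of the GC trend, 0 higher and 2 lower panel members had such a p.

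Brain endothelial markers were lower on average, each of them. All 12 of 12 tested markers had a lower mean in the exercised lineage, with a median of -0.13, and 12 of 12 after removal of the GC trend with the same median of -0.13. Flt1, a receptor for vascular endothelial growth factors, had 2164 to 3586 (median 2606) in exercised and 2810 to 3590 (median 3187) in sedentary libraries. Its log2 difference was -0.23 (SE 0.060, limma adjusted p = 0.179, DESeq2 adjusted p = 0.047, and 0.479 by DESeq2 with GC offsets), and 9 of 11 exercised libraries lay below their generation's sedentary median. Cdh5, the cadherin of endothelial junctions, differed by -0.21 (SE 0.073), Kdr, the main receptor for Vegfa, by -0.20, and Abcb1a, a drug pump of the blood-brain barrier, by -0.16 (SE 0.071), each with an unadjusted p under 0.05. Cldn5 and Pecam1, of tight and other junctions, differed by -0.11 and -0.14 and did not reach it. The mean log2 level of the 12 markers ranged from 9.22 to 9.90 in exercised and from 9.53 to 9.92 in sedentary libraries, so the groups overlapped. The list median was -0.19 in fathers and -0.08 in offspring. Exercised fathers replicates 1 and 4 had means of 9.26 and 9.22. Replicates 2 and 3, at 9.66 and 9.63, lay within the 9.53 to 9.74 of the sedentary fathers. The list's median stayed between -0.19 and -0.08 under all 23 other settings tried and between -0.16 and -0.097 with any 1 library left out. In bulk tissue, fewer cells of a type and less RNA per cell cannot be told apart.

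Lists of other vascular and surface cell types had lower pooled means, with larger differences in the fathers than in the offspring, and 0 members at an unadjusted p under 0.05 by limma and none called by edgeR or DESeq2. Mural cell markers were lower for 9 of 10 (median -0.07), with medians of -0.23 in fathers and 0.04 in offspring. Meningeal fibroblast markers were lower for 11 of 13 (median -0.13), with -0.55 in fathers and 0.07 in offspring, where 10 of 13 were higher. Erythrocyte genes were lower for 5 of 5 (median -0.31), with -0.81 in fathers and -0.08 in offspring. With 1 library left out, these medians ranged from -0.14 to -0.032, from -0.22 to -0.025 and from -0.45 to -0.078, the last without replicate 6 of the offspring of sedentary fathers. Erythrocyte genes varied most, with a mean log2 level from 5.85 to 8.59 in exercised and from 6.02 to 10.37 in sedentary libraries. Whether retained blood or meninges moved the endothelial values was not tested.

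Choroid plexus markers went the other way in the fathers. All 17 of 17 were higher on average in the pooled fit, with a median of 0.53, yet 0 had an unadjusted p under 0.05. The median was 1.61 in fathers and 0.03 in offspring, where 10 of 17 were higher. It was 0.23 without sedentary fathers replicate 1 and 0.92 without replicate 3 of the offspring of exercised fathers, the lowest and highest values with 1 library left out. Their mean log2 level ranged from 7.22 to 11.63 in exercised and from 6.84 to 11.46 in sedentary libraries. Thalamus and habenula markers were lower for 9 of 11 tested (median -0.26; -0.47 in fathers and -0.07 in offspring), and Chrnb3, Slc17a6, Plekhg1 and Tcf7l2 had an unadjusted p under 0.05. Chrnb3, a nicotinic receptor subunit of the habenula, ranged from 12.5 to 32.8 in exercised and from 16.5 to 143.3 in sedentary libraries, and its interaction with generation had an unadjusted p of 6.6e-04. With the means of both lists as covariates limma called 0 genes, with 1000 higher and 1169 lower at an unadjusted p under 0.05, and the fit without the 6 libraries low in choroid plexus markers is given above.

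**Figure D4:**
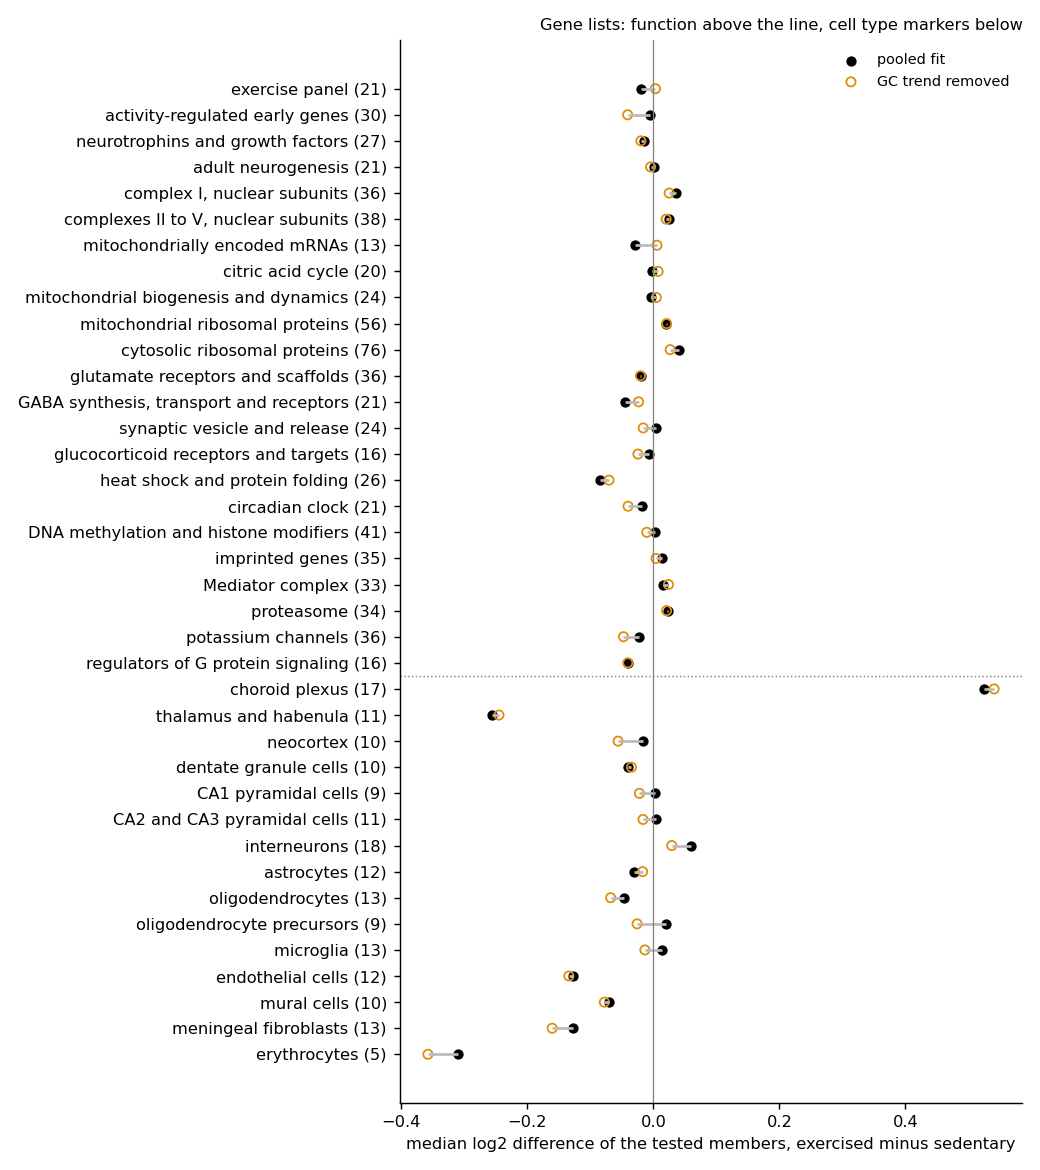
Median log2 difference of the tested members of each gene list (x axis; the number tested is in brackets on the y axis), in the pooled fit in black and after removal of the GC trend in orange. Choroid plexus markers stand at 0.53, thalamus and habenula at -0.26, erythrocytes at -0.31 and endothelial markers at -0.13, and functional lists lie between -0.084 and 0.041.

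Lists of markers of cells within the hippocampus had medians between -0.05 and 0.06. Dentate granule cell markers were lower for 8 of 10, with a median of -0.04, and 0.03 without the 6 libraries low in choroid plexus markers; Prox1, the factor that keeps granule cell identity, was the 1 with an unadjusted p under 0.05, at -0.18 (SE 0.067). CA1 markers (5 of 9 higher, median 0.00) and CA2 and CA3 markers (6 of 11 higher, median 0.00) were balanced. All 13 oligodendrocyte markers were lower, with a median of -0.05, led by Ermn, a cytoskeletal protein of myelin sheaths, at -0.20 (SE 0.070) and Ugt8a, an enzyme of myelin lipid synthesis, at -0.16 (SE 0.077). After removal of the GC trend 12 of 13 were lower, and with both tissue covariates the list median was 0.00. Aqp4, the water channel of astrocyte endfeet, differed by -0.17 (SE 0.055) with all 11 exercised libraries below their generation's sedentary median, while 8 of 12 astrocyte markers were lower and their median was -0.03. Interneuron markers were higher for 13 of 18 (median 0.06), with medians of 0.14 in fathers and -0.01 in offspring, where 8 of 18 were higher. After removal of the GC trend their median was 0.03, and members at an unadjusted p under 0.05 went from 3 to 0. Of these 3, the lowest p was that of Cort, a peptide related to somatostatin, at 0.23 (SE 0.091). Microglial and oligodendrocyte precursor markers were near balance, with 7 of 13 and 5 of 9 higher and medians of 0.01 and 0.02.

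Chaperones were the functional list with the lowest median. Of 26 heat shock and protein folding genes, 24 had a lower mean in the exercised lineage (median -0.08), and 25 after removal of the GC trend (median -0.07). Dnaja1, a co-chaperone of cytosolic Hsp70, differed by -0.09 (SE 0.028, limma adjusted p = 0.229), Canx, the lectin chaperone calnexin, by -0.08 (SE 0.026) and Hspd1, the mitochondrial chaperonin, by -0.07 (SE 0.027). Xbp1 and Hsp90aa1 also had an unadjusted p under 0.05, at -0.19 and -0.07. The list mean was 11.92 ± 0.024 (SD, n = 4) in exercised fathers and 11.90 ± 0.045 (n = 4) in sedentary fathers. It was 12.01 ± 0.082 (n = 7) in offspring of exercised fathers and 12.16 ± 0.19 (n = 8) in offspring of sedentary fathers. Of the 8 offspring of sedentary fathers 3 lay above 12.3, and the other 5 lay within the range of the offspring of exercised fathers. In fathers the list median was 0.00, with 14 of 26 higher, and in offspring it was -0.12, with 1 of 26 higher; the difference between generations was not tested for the list.

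**Figure D5:**
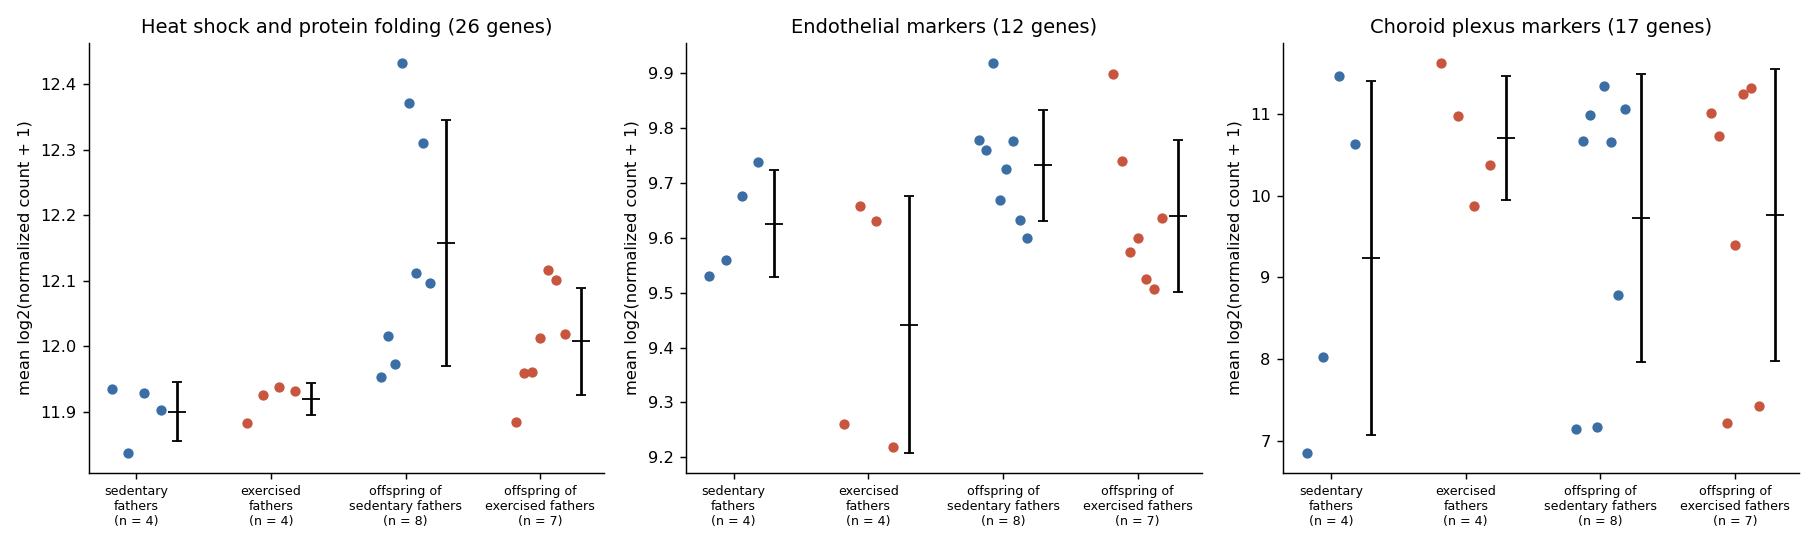
Mean log2(normalized count + 1) of 3 gene lists in each library (y axes, which differ in scale and do not start at 0) in the 4 groups (x axis), with 1 point per library and the mean and SD in black. Heat shock and protein folding genes reach 12.43 in the offspring of sedentary fathers, endothelial markers fall to 9.22 in exercised fathers, and choroid plexus markers span 6.84 to 11.63.

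Ribosomal and respiratory chain genes were higher for most members, by little. Cytosolic ribosomal protein genes were higher for 65 of 76 (median 0.04; 56 of 76 and 0.03 after removal of the GC trend). Rps28 differed by 0.11 and Rpl39 by -0.10. Nuclear genes of complex I, the first enzyme of the respiratory chain, were higher for 31 of 36 (median 0.04), and those of complexes II to V for 27 of 38 (median 0.02). Only Ndufv1 (0.09) and Ndufs1 (-0.05) in complex I and Atp5g2 (0.13) in the others had an unadjusted p under 0.05, and Ndufs1 went against its list. After removal of the GC trend 0 members of either respiratory chain list had such a p. Mitochondrial ribosomal proteins were higher for 38 of 56 (median 0.02) and proteasome subunits for 22 of 34 (median 0.02), and Psmc6, an ATPase of the proteasome cap, differed by -0.10 (SE 0.025, limma adjusted p = 0.157, DESeq2 adjusted p = 0.019), and by -0.06 with DESeq2 and GC offsets (adjusted p = 0.961). Without the 6 libraries low in choroid plexus markers all 5 of these lists had medians below 0: -0.03 for cytosolic ribosomal proteins, -0.04 for complex I, -0.05 for complexes II to V, -0.03 for mitochondrial ribosomal proteins and -0.03 for the proteasome. Mitochondrially encoded mRNAs, whose median GC was 37.1%, were lower for 10 of 13 (median -0.03), and 8 of 13 were higher after removal of the GC trend (median 0.01). The ribosomal list mean ranged from 12.30 to 12.66 in exercised and from 12.16 to 12.64 in sedentary libraries, so no list here separated the lineages. Read assignment is uncertain for ribosomal protein genes, which have many processed copies.

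Chromatin, Mediator and clock genes had members with an unadjusted p under 0.05, in differing directions. Over all genes tested, limma gave an unadjusted p under 0.05 for 5.39% higher and 6.83% lower. After removal of the GC trend these shares were 2.18% and 2.97%. Of 41 DNA methylation and histone modifiers, 21 were higher, and 6 higher and 0 lower ones had an unadjusted p under 0.05. Hdac5, a histone deacetylase that shuttles with neuronal activity, differed by 0.09 (SE 0.031) and Ehmt2, a histone methyltransferase of silent chromatin, by 0.08 (SE 0.028). Both have a GC above 59%, and after removal of the GC trend they differed by 0.03 and 0.01, and 1 higher and 1 lower gene of the list had an unadjusted p under 0.05. Of the 33 Mediator genes, 4 on each side had an unadjusted p under 0.05 in the pooled fit and 3 on each side after removal of the GC trend. Of 21 clock genes, 6 were lower and 1 higher at an unadjusted p under 0.05; Bhlhe40, a repressor in the clock, differed by -0.14 (SE 0.043), Hlf, a clock output factor, by -0.14 (SE 0.045) and Rorb, a nuclear receptor, by -0.17 (SE 0.057). These 3 kept an unadjusted p under 0.05 after removal of the GC trend, when 3 clock genes were lower and 0 higher at that p. With both tissue covariates Rorb differed by -0.07 (limma adjusted p = 0.606, no longer under 0.05 unadjusted). The time of day of tissue collection is not given in the labels. Median differences were 0.00 for the modifiers, 0.02 for Mediator and -0.02 for the clock.

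Synaptic lists gave small medians. Genes of GABA synthesis, transport and receptors were lower for 17 of 21 (median -0.05; -0.02 after removal of the GC trend), with Gabra4, a receptor subunit, at -0.13 (SE 0.038). Potassium channels were lower for 25 of 36 (median -0.02; -0.05 after removal), with Kcnq3, of the M-current, at -0.15 and Kcnh3 at 0.11. Glutamate receptors and scaffolds were lower for 21 of 36 (median -0.02), with Grik5 at 0.10, and genes of vesicle release were higher for 13 of 24 (median 0.00). Without the 6 libraries low in choroid plexus markers the medians were 0.03 for glutamate receptors and 0.01 for potassium channels. Regulators of G protein signaling were lower for 10 of 16 (median -0.04). Imprinted genes, for which paternal inheritance is of particular interest, were higher for 18 of 35 (median 0.01). Trappc9 (0.08) and Ube3a (-0.10) were the only members with an unadjusted p under 0.05, beside 12.2% of all genes tested. After removal of the GC trend 0 imprinted genes had such a p. Activity-regulated early genes were higher for 15 of 30, adult neurogenesis genes for 13 of 21, growth factors for 12 of 27, citric acid cycle genes for 10 of 20, genes of mitochondrial biogenesis for 12 of 24 and glucocorticoid-related genes for 7 of 16, with medians between -0.02 and 0.00. Growth factors had 0 higher and 6 lower members at an unadjusted limma p under 0.05, with the same counts after removal of the GC trend. Igf1, Vegfa, Flt1 and Kdr, given above, are among the 6 of the pooled fit. Biogenesis genes had 1 higher and 4 lower (0 and 2 after removal), and citric acid cycle genes 3 and 1 (1 and 0). Over all genes tested the shares were 5.39% higher and 6.83% lower, and 2.18% and 2.97% after removal.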

How the data were processed

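The authors sequenced hippocampal RNA in 23 libraries. Strand-specific poly(A) libraries were made from 500 ng of RNA with 15 PCR cycles and read from both ends over 76 bases, per the labels' protocols. Tools named, per the submitters' processing notes, are DESeq2 1.10, RSEM 1.2.28 and STAR 2.5.2a, with build GRCm38. Annotation version and strand setting of the counting were not given in the sources, and the authors' table names say that an outlier was left out.

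The authors deposited 2 tables of normalized counts, 1 per generation. These values are a signal, not raw counts: divided by the value of 1 read in its column, 100% of the deposited values came within 0.1 of whole reads, so reads were recovered (33667580 to 55172616 per library). The tables were joined on the row name (51912 genes), and the median ratios to the geometric mean were alike, so 1 scale was used. The authors' comparison tables were not used here. All 61 pairs of libraries within a group differed by more than sampling noise, with a chi-square per degree of freedom of 5.99 to 66.7 over genes with at least 20 reads in the pair.

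Genes that reached a normalized count of 10 in 11 or more libraries were tested with limma 3.58.1 (R 4.3.3) on log2(value + 1), with a mean-variance trend and terms for generation and lineage, two-sided, with Benjamini-Hochberg adjustment over all 17447 genes and a threshold of 0.05. The interaction of lineage and generation was fitted in the same way. Fits on recovered reads used edgeR 4.0.16 and DESeq2 1.42.0. GC content and coordinates come from GENCODE M21 on GRCm38, and the GC trend of each library was a natural spline with 5 degrees of freedom. The fit was tested on simulated data, with planted changes larger than the differences of most named genes and without a GC trend. That test therefore does not show how differences as small as most of those reported here would be called. Counting error at these depths is small against the spread between libraries, and intervals from PCR reads would cover counting error only.

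Members of the groups come from the labels. Named genes are the 12 higher and 12 lower genes of smallest p with a mean of at least 50 and a symbol that is not that of a predicted gene, the exercise panel, and up to 3 genes of smallest p per list; some of these are not reported here. The gene lists, 38 in all, and the comparison were chosen with earlier results of these data known. Kdr, Tcf7l2, Cldn5, Pecam1, Xbp1 and Hsp90aa1 were named after their values were seen. Alternatives covered pseudocounts, filters, scaling, covariates, barcode series and each library left out.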

Additional observations from a re-analysis of the deposited data

Results flagged for a closer look

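A library was looked at again where, within its group of 4 to 8, it lay farther from the nearest other library than Dixon's 95% limit allows. This was asked for the 24 named genes, the means of the 15 marker lists and each library's GC and length slopes in the 4 groups, 164 times in all, and 8 values, in 7 libraries, stood out, as many as chance gives at 1 in 20. All values are log2(normalized count + 1). Tesk1 was 11.98 in exercised fathers replicate 4, beside 11.89 to 11.90 in the others of that group. Setd1a was 11.20 in sedentary fathers replicate 1, beside 11.03 to 11.06. Trappc13 was 10.87 in exercised fathers replicate 1, beside 10.99 to 11.01. In offspring of exercised fathers replicate 7, the library with the most positive GC slope, Med25 was 11.69 beside 11.47 to 11.56, and Rab6a was 14.46 beside 14.58 to 14.63. Ptp4a1 was 12.51 in offspring of sedentary fathers replicate 3, beside 12.62 to 12.72. The mean of the oligodendrocyte markers was 13.10 in offspring of sedentary fathers replicate 1, beside 12.68 to 12.87. The mean of the erythrocyte genes was 10.37 in offspring of sedentary fathers replicate 6, beside 6.02 to 7.77.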

How the results depend on the processing

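Under 23 other settings, 19 planned and 4 chosen after seeing the data, and with each of the 23 libraries left out, limma and edgeR called 0 genes for lineage. DESeq2 on recovered reads called 59 higher and 53 lower, 22 of the 24 named genes among them, while 2 got no adjusted p. The interaction was called for 4 genes without a filter on low values, 3 by DESeq2 and 1 without the libraries low in choroid plexus markers. With 1 library left out, the calls ranged from 0 to 0 for lineage and for the interaction. The 24 named genes changed sign under no setting, but they were chosen by their p in the same libraries. Their steady sign and their DESeq2 calls are therefore a description and no support. Counts at an unadjusted p under 0.05, 941 higher and 1191 lower in the main fit, were 379 and 516 on removal of the GC trend, 333 and 548 by DESeq2 with GC offsets, and 536 and 592 without the low choroid plexus libraries. With 1 library left out they were 707 to 1179 and 866 to 1487. The cause was not tested.

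List medians changed sign under at least 1 setting for 33 of 38 lists. The other 5 were endothelial cells, erythrocytes, the clock, GABA genes and regulators of G protein signaling. Among the 33, choroid plexus and thalamus and habenula changed sign only with covariates made from their own markers. Such covariates bring these medians near 0 by construction, so those changes say nothing of stability. With 1 library left out their medians were 0.23 to 0.92 and -0.30 to -0.17. Without the libraries low in choroid plexus 11 lists changed sign, in fathers alone 10, in offspring alone 10, and with any 1 library left out 14. Sign changes also occurred among genes of the exercise panel, none past an adjusted p of 0.05; of these Arc (0.12), Apln (-0.11) and Fgf2 (-0.099) had the largest differences in the main fit, and Fgf2 and Apln had interaction p of 0.0082 and 0.027 by limma, unadjusted. Log2 values were as follows. With DESeq2 and GC offsets, Ppargc1a was 0.0245, Npas4 -0.0041 and Cs 0.0032. With GC and length trends removed, Igf1r was 0.015 and Ppargc1a 0.039. With the GC trend removed, Ppargc1a was 0.022 and Cs 0.0033, and with both tissue covariates added Ppargc1a was 0.0375, Arc -0.16, Fos -0.16, Npas4 -0.046 and Cs 0.023. With array weights, Dcx was -0.018 and Cs 0.0040. With both tissue covariates alone, Bdnf was -0.018, Fndc5 0.018, Arc -0.096, Fos -0.15, Npas4 -0.0076 and Cs 0.013. The choroid plexus covariate gave Fos -0.040 and Cs 0.00071, and the thalamus covariate Bdnf -0.045, Dcx -0.0099 and Cs 0.0022. Fathers alone gave Ntrk2 0.067, Igf1r 0.0013, Fgf2 0.15, Apln 0.11, Dcx -0.025, Npas4 -0.45 and Sirt1 0.0012, and offspring alone gave Ppargc1a 0.017, Arc -0.037 and Cs 0.011. Dcx was -0.0035 with median centring, -0.0045 without the generation term and -0.00080 with quantile normalization, where Cs was 0.011. With libraries of a shared title stem averaged, Dcx was -0.019, Fos -0.012 and Npas4 -0.064, and without the AD21 barcodes Dcx was -0.022 and Npas4 -0.013. Without the libraries low in choroid plexus, Ntrk2 was 0.011, Igf1r 0.00094, Ppargc1a 0.014, Ctsb -0.020, Fos -0.23, Npas4 -0.034 and Cs 0.0039. With 1 library left out, Bdnf ranged from -0.0021 to 0.041, Cs from -0.0087 to 0.0081, Dcx from -0.023 to 0.033, Fos from -0.11 to 0.23, Igf1r from -0.035 to 0.00013, Npas4 from -0.080 to 0.15 and Ppargc1a from -0.038 to 0.0097.

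No paired analysis was possible because replicate numbers were given in accession order and no label ties a library of 1 lineage to one of the other. Averaging the offspring of exercised fathers whose titles share a stem left 20 units, with a smallest adjusted limma p of 0.300 and 856 higher and 1155 lower at an unadjusted p under 0.05. The AD21 barcode series holds 3 libraries, which gives no value within it.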

Other observations

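The order of base composition was also seen between chromosomes. Over the 19 autosomes and the X chromosome, the median log2 difference of the tested genes and their median GC content had a Spearman correlation of 0.95 (20 chromosomes, given as a description). On chromosome 13, with a median GC of 46.1%, 2.30% of 652 genes were higher and 9.66% lower at an unadjusted limma p under 0.05. On chromosome X, with 45.6%, it was 2.39% and 10.2% of 587. On chromosome 17, with 52.5%, it was 8.86% and 5.65% of 779, and on chromosome 19, with 51.4%, 8.72% and 4.82% of 539. Of the 12 named higher genes, Vars2, Vars and Wdr46 lie on chromosome 17.

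Since both valyl-tRNA synthetases were among the leading genes, the other aminoacyl-tRNA synthetases were looked up after these values were seen. Of 37 tested, 22 were higher on average (median 0.01), and 4 higher (Vars2, Vars, Farsa, Mars) and 2 lower (Yars2, Nars) had an unadjusted limma p under 0.05. That is 6 of 37, with the genes that prompted the search among them, beside 12.2% of all genes tested. Farsa differed by 0.09 and Mars by 0.07, Yars2 by -0.07 and Nars by -0.04, all log2 differences.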
